A study of Mytilus galloprovincialis with 18 samples.

Results

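Among the probes that the study listed as responsive to a mixture of cadmium, copper and mercury in mussel gills, 172 carried the description "without similarity", meaning that the transcript resembled no known protein or gene in the databases searched. They are 172 of the 1920 probe IDs on the array, and 172 of the 434 that the study's 4 probe tables describe. They were found by that description, each counted once and matched by ID to the scanner files. The tables hold probes that the study had selected on these same mussels by their ratio of treated mussel over control pool, so the values of each dose against the pool chose the members. Those values are given as a description.

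Gill RNA came from 9 Mytilus galloprovincialis, 3 at each of 50, 100 and 200 nM of Cd, Cu and Hg salts in combination for 48 h, and the common comparator was 1 pool made of gills of 5 control mussels. Treated RNA and pool RNA, labelled with the dyes Cy3 and Cy5, competed for the same spotted cDNA probes on 18 arrays. Each mussel had an array A and an array B with the dyes exchanged. All mussels of a dose shared 1 tank, so dose and tank cannot be told apart, and the pool is 1 control sample whose own spread between mussels is unknown. The 3 doses share that pool. A value is the log2 ratio of treated mussel over pool, averaged over 2 spots and then over arrays A and B of a mussel. In such RNA, fewer cells of a type and less RNA per cell cannot be told apart.

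Bivalve gills are ciliated sheets that move and filter water, and they are a first site of contact with dissolved metals. Cadmium, mercury and an excess of copper bind thiol groups and disturb protein folding, and animal cells answer with metallothioneins, which bind these metals, and with heat shock proteins, which hold damaged proteins. Probes made from cloned cDNA ends, as here, often come from the 3′ part of a transcript. A clone of that kind may lack a match because it lies outside the coding part, because it is short, or because the gene is found only in related animals. The descriptions give none of the 172 members a function, so the members are ordered below by direction, by spread and by shared cluster. They belong to 166 Mytibase clusters, Mytibase being the mussel transcript catalogue whose IDs the tables give.

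At least 97.1% of the members' spots on each array were over background in the treated channel and at least 95.1% in the pool channel. The markers of the tissue were present: the 7 described probes for tubulins and axonemal dyneins, parts of cilia, had a median percentile of spot brightness in the pool of 95.8. Probes for foot and byssus proteins (10), digestive gland (5), muscle (3) and gonad (1) also gave signal, at median percentiles of 70.3, 69.8, 70.6 and 86.9. The brightest probe stood at 99.5 in the foot and byssus list and at 96.4 in that of digestive gland, against 97.1 in the cilia list. Brightness thus did not set the gill apart from other tissues. No described probe matched mytilin, myticin, mytimycin or lysozyme, the words listed for haemocytes, but 5 carry other immune descriptions (mytimacin-2, mytimacin-4, macrophage expressed protein, an amebocyte aggregation factor and a defensin-like protein), found after their values were seen. Only the 262 probes described by a similarity were searched, and these had been selected as responsive. A word without a match is therefore no sign that the transcript is absent from the array or the gill. The mean log2 ratio per mussel at 200 nM lay between -0.70 and -0.27 for the cilia list and between -0.30 and -0.13 for the foot and byssus list. It lay between -0.03 and 0.37 for digestive gland, between -0.13 and 0.25 for muscle and between -0.64 and -0.49 for the 5 immune probes. Those 5 do not stand for all immune descriptions. The study listed C1q domain probes, also of its immunity category, in both directions at 200 nM. In the cilia list 1 of 7 probes and in the foot and byssus list 4 of 10 had a mean above 0, and of all these probes only that of gonad, at -0.85 to -0.61, passed in limma. The study had selected these probes by their ratios to the pool, so the ratios are a description. The part of these tissues and cells in the members' values was not tested.

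The library labelled 50 nM replicate 3 stood apart from the other 8 mussels. Over the 172 members its values correlated negatively with every other mussel, at r = -0.745 to -0.417, whereas the other 8 correlated positively in all 28 pairs, at r = 0.145 to 0.715. Over all 1920 probes its arrays correlated with those of the other mussels in the same dye orientation at -0.314 to 0.0614 for array A (mean -0.145) and at -0.246 to 0.0275 for array B (mean -0.139), where the other pairs had means of 0.200 and 0.238. These are correlations across probes of mussels that share the pool. Since the same pool RNA was on every array, the channel labelled pool can be followed through the series. Over the members, that channel correlated better than the treated channel with the median pool profile of the other mussels on 16 of 18 arrays. The 2 exceptions were arrays A and B of 50 nM replicate 3, where the channel labelled treated had r = 0.962 and 0.963 with that profile and the channel labelled pool 0.914 and 0.911. Other measures did not set this mussel alone apart: by median distance over the members the treated channel was nearer on 5 arrays, and by r over all probes on 6, with both arrays of 50 nM replicate 3 among them each time.

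Some single members differed more clearly, and others did not. Myt01-008B03 had a level in the channel labelled treated of 3.79 and 4.49 (log2 over the array's median) on arrays A and B of 50 nM replicate 3, against -0.32 and -0.33 in the channel labelled pool. On the other 16 arrays its treated channel lay between -0.22 and 3.09 and its pool channel between 0.70 and 5.58. For Myt01-014B07, 50 nM replicate 3 had 0.28 and -0.26 in the treated channel, against 1.42 and 1.53 in the pool channel, and the pool channel was lower than that on all 16 other arrays. For Myt01-005F03 the pool channel of this mussel, at -0.295 and -0.306, lay inside the range of the other arrays, -1.53 to 0.05. The same held for Myt01-016G11, with 0.27 and 0.18 inside 0.09 to 2.31. The direction of this mussel's ratios was therefore not settled. The labels, the file headers and the authors' processed values all give it one direction, which is kept here, and results that rest on it are given also with its sign turned or without it.

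**Figure D1:**
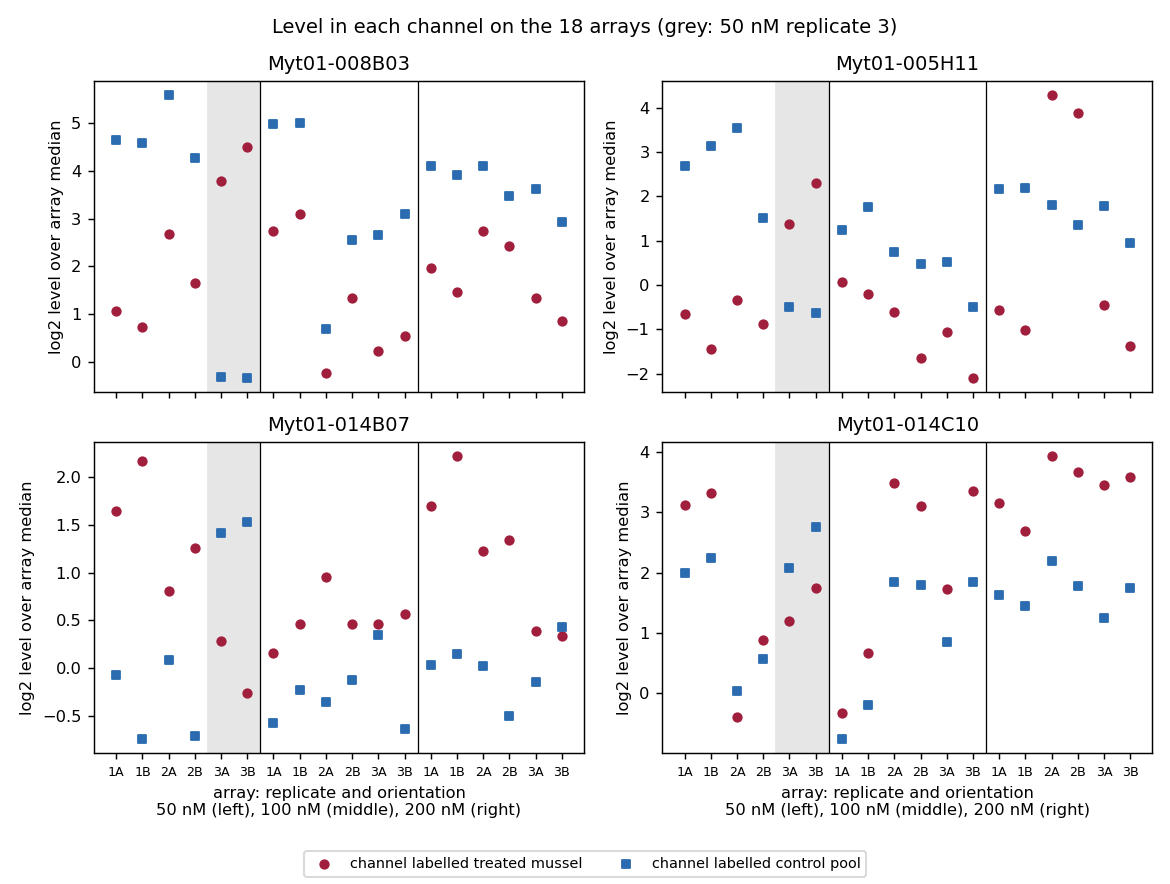
Levels (log2 over the array's median, after normalization) of 4 members in the channel labelled treated mussel (circles) and the channel labelled control pool (squares) on each of the 18 arrays, grouped by dose from left to right. On the grey arrays, 50 nM replicate 3, the 2 channels stand in the opposite order to most of the other arrays; for Myt01-008B03 the treated channel is at 3.79 and 4.49 and the pool channel at -0.32 and -0.33.

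By the study's listing, 7 members were selected as higher and 2 as lower than the pool at 50 nM. At 100 nM there were 27 higher and 37 lower, and at 200 nM 69 higher and 75 lower. Most were listed at a single dose: 5 at 50 nM, 20 at 100 nM and 102 at 200 nM. A further 41 were listed at 100 nM and again at 200 nM, and in 39 the direction was the same. The 3 sets of values share the pool, so this count is part of the rule and not a finding.

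The members' changes were small at the lower doses. The median size of a member's mean log2 ratio, sign aside, was 0.13 at 50 nM (0.19 with replicate 3 turned), 0.25 at 100 nM and 0.48 at 200 nM. The same medians over all 1920 probes were 0.11, 0.15 and 0.17. The SD between the 3 mussels of a dose had a median of 0.32, 0.27 and 0.25 among the members, in order of dose. At 50 nM the mean exceeded its SD in only 28 of the 172 members (17.9% of all probes), at 100 nM in 89 (31.8%) and at 200 nM in 133 (39.4%). The share at 50 nM was near that of all probes, and with replicate 3 turned the count was 63 (24.8%).

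Members went in both directions at 200 nM in nearly equal numbers. All 3 mussels lay above the pool for 65 members, against 21.2% of all probes, and all 3 below it for 71, again against 21.2%. The median of the members' means was -0.13. At 100 nM the counts were 45 above (18.9%) and 50 below (16.6%). Of the 262 probes that the tables describe by a similarity, also selected on these mussels, 129 had all 3 mussels above the pool and 85 all 3 below, with a median of 0.24. Both sets were selected on the same values, and no test was made of the difference between them. A mean beyond 1 on the log2 scale was reached at 50 nM by no member upward (0.156% of all probes) and only by Myt01-005H11 downward (0.0521%). At 100 nM the counts were 2 upward (0.260%) and 6 downward (0.469%), and at 200 nM 7 upward (1.09%) and 5 downward (0.365%). With 50 nM replicate 3 turned, 3 members at 50 nM passed that size upward (0.417%) and 4 downward (0.260%).

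**Figure D2:**
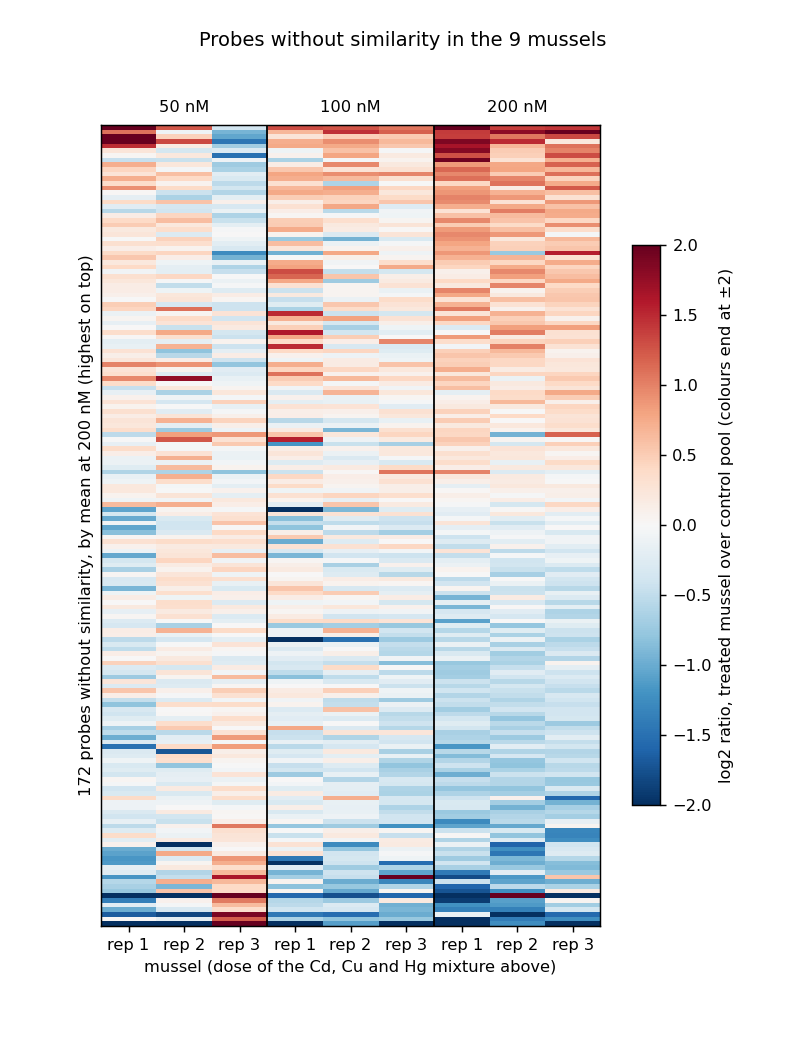
Log2 ratio of treated mussel over control pool for the 172 probes without similarity (lines, sorted by their mean at 200 nM) in the 9 mussels (columns, 3 replicates per dose, doses from low to high); red is higher than the pool and blue lower, and colours end at ±2. Most members are paler at 50 and 100 nM and split into 2 directions at 200 nM, and the largest members of 50 nM replicate 3 have the opposite colour to its 2 neighbours.

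**Figure D3:**
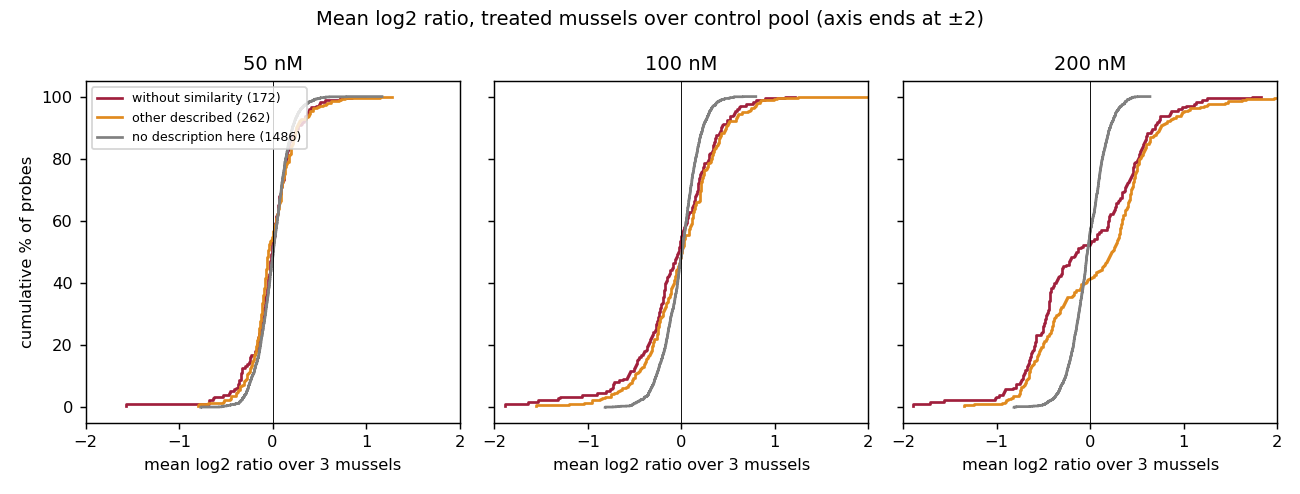
Cumulative share (%) of probes against their mean log2 ratio over the 3 mussels at 50, 100 and 200 nM, for the 172 probes without similarity, the 262 other described probes and the 1486 probes with no description here. At 200 nM the medians are -0.13 for probes without similarity, 0.24 for other described probes and -0.03 for the rest; the 2 described sets were selected on these values.

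Set against the ratios normalized here, which are not those the study selected on, the listing was not a matter of size alone. The smallest mean among the members listed as higher at 200 nM was that of Myt01-004D09, with 0.03, 0.15 and -0.06 in replicates 1 to 3. In the study's own values all 3 mussels lay above the pool for that probe. Among those listed as lower it was Myt01-017A03, with -0.19, -0.40 and -0.09. Outside the listing, Myt01-005H11 had a mean of -0.93 at 200 nM and was listed only at 100 nM, and Myt01-003A09 had the highest mean of the members not listed at 200 nM, 0.34 ± 0.41 (SD, n = 3).

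Passing the test of limma, a linear model with a spread shared across all probes, at an adjusted p (Benjamini-Hochberg over 1920 probes) under 0.05 were 16 members at 200 nM, 7 higher and 9 lower than the pool. Among all probes 2.03% passed, 0.885% as higher and 1.15% as lower. Since the rule used this contrast, nothing is read from the count. No member passed at 50 or 100 nM, where 0.00% of all probes passed. At an unadjusted p under 0.05 there were 8 members at 50 nM (3.75% of all probes), 42 at 100 nM (9.53%) and 105 at 200 nM (18.1%). The count at 200 nM depended strongly on single mussels: 0 members passed without any 1 of the 3 mussels at 200 nM (at most 1 of all probes), 1 without 50 nM replicate 2 (6 of all probes), 3 without 100 nM replicate 1 (11) and 9 without 100 nM replicate 2 (25). In the other direction, 26 passed without 50 nM replicate 1 (72 of all probes), 37 without 50 nM replicate 3 (97), and 48 (25 higher and 23 lower, 3.59% and 2.66% of all probes) once the ratios of that mussel were turned in sign.

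The largest of the 7 higher members was Myt01-005F03. It had 2.10, 1.24 and -0.38 at 50 nM, 1.31, 1.26 and 1.07 at 100 nM, and 2.67, 1.38 and 1.42 at 200 nM. Its mean at 200 nM was 1.82 ± 0.74 (SD, n = 3), 3.54-fold over the pool, and only 50 nM replicate 3 lay below the pool. Without background subtraction the same mean was 1.01, and its spots were dim in the pool channel, at percentile 24.5.

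Myt01-014C10 had 1.09, -0.08 and -0.94 at 50 nM, 0.67, 1.46 and 1.19 at 100 nM, and 1.39, 1.78 and 2.02 at 200 nM. Its mean at 200 nM was 1.73 ± 0.32, 3.32-fold over the pool. All 6 mussels at 100 and 200 nM were above the pool, whereas those at 50 nM fell on both sides.

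Myt01-018B10 had 0.24, -0.35 and -0.27 at 50 nM, -0.08, 0.59 and -0.02 at 100 nM, and 1.83, 0.51 and 0.99 at 200 nM. Its mean of 1.11 ± 0.67 at 200 nM had the widest spread of the 7 but for Myt01-005F03, and 100 nM replicate 2 lay above 200 nM replicate 2. Without background subtraction its mean was 0.63.

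Of the other 4, Myt01-011E01 had 0.28, 0.60 and -0.21 at 50 nM, 0.78, 0.93 and 0.98 at 100 nM, and 0.95, 0.51 and 1.10 at 200 nM, so the upper doses overlapped. Myt01-001G12 had 1.15, 0.78 and 0.66 at 200 nM, against 0.54, 0.28 and 0.30 at 100 nM, which all lay lower. Myt01-002B06 had 0.03, -0.43 and -0.58 at 50 nM, 0.76, 0.73 and 0.23 at 100 nM, and 0.89, 0.70 and 0.60 at 200 nM, and the upper doses overlapped. Myt01-002D04 had -0.19, -0.63 and -0.19 at 50 nM, 0.49, 0.46 and 0.38 at 100 nM, and 0.98, 0.86 and 0.31 at 200 nM, so that it lay below the pool at 50 nM only, as labelled. Its even values at 100 nM are averages of arrays that disagreed in sign in each mussel. Arrays A gave 1.095, -0.20 and 1.19 there, and arrays B -0.12, 1.11 and -0.44. It passed at 200 nM in 6 of the 11 alternatives that kept the 9 mussels.

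The lowest of the 9 lower members was Myt01-016D12. It had 0.03, -0.18 and 1.20 at 50 nM, -0.63, -0.81 and -0.76 at 100 nM, and -2.54, -1.39 and -1.23 at 200 nM. The 3 doses did not overlap as labelled. Its mean at 200 nM was -1.72 ± 0.71 (SD, n = 3), 3.29-fold below the pool, and once 50 nM replicate 3 was turned in sign the mean at 50 nM was -0.45 ± 0.66 and the values at 50 and 100 nM overlapped. It was also bright in the pool channel, at percentile 97.9, and passed in all 11 alternatives that kept the 9 mussels and in 6 of the 9 that left out 1.

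Myt01-017B09 had -0.22, -0.04 and 0.64 at 50 nM, -0.52, -0.27 and -0.96 at 100 nM, and -1.20, -1.13 and -0.69 at 200 nM, with 1 mussel of 100 nM inside the range of 200 nM. Myt01-004B07 had -0.65, -0.74 and -0.88 at 200 nM and -0.22, -0.70 and -0.60 at 100 nM. The remaining 6 were smaller and, with 1 exception, tight. Myt01-016A12, Myt01-017H10, Myt01-014G12, Myt01-016C11 and Myt01-016C01 had means between -0.65 and -0.53 at 200 nM with SDs between 0.05 and 0.11. Myt01-006G12 had a like mean, -0.64, with the wider values -0.30, -0.68 and -0.94. For Myt01-016A12, Myt01-017H10, Myt01-014G12 and Myt01-016C01, all mussels at 200 nM lay below all mussels at 100 nM, whereas for Myt01-016C11 replicate 3 at 100 nM (-0.65) was lower than all 3 at 200 nM (-0.63, -0.63 and -0.52).

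**Figure D4:**
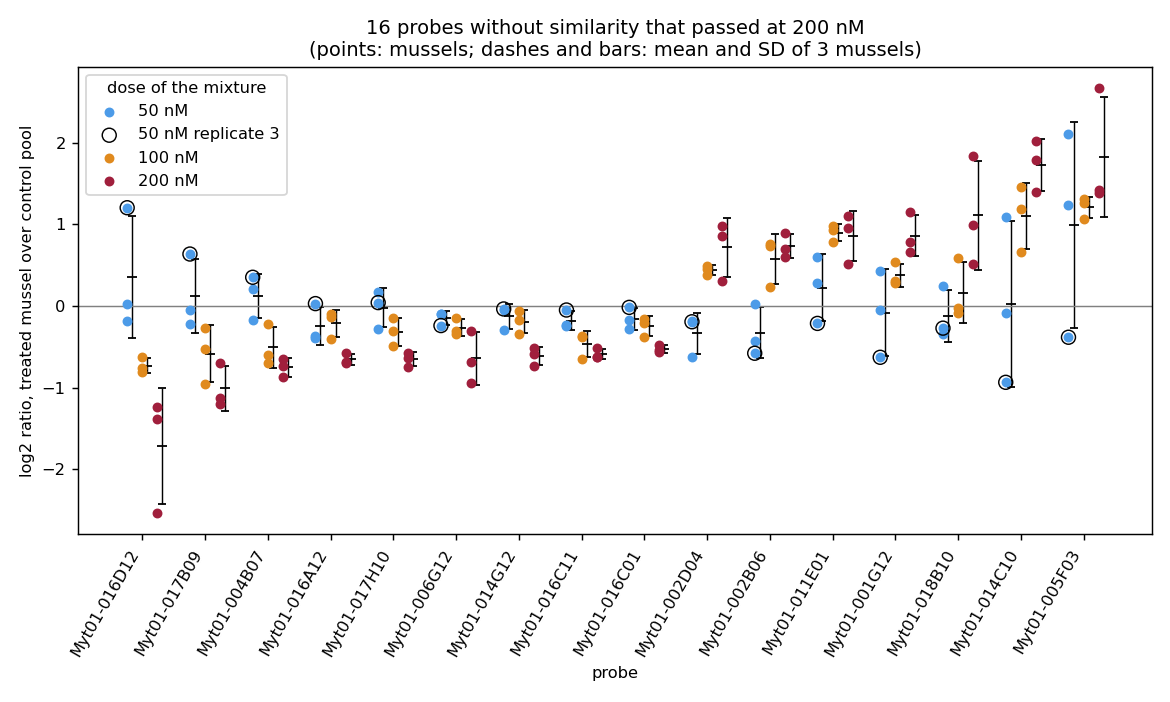
Log2 ratio of treated mussel over pool for the 16 members that passed at 200 nM, with a point per mussel (50, 100 and 200 nM from left to right within each probe) and the mean and SD of 3 mussels; open rings mark 50 nM replicate 3. The mussels at 200 nM all lie on one side of 0 for each probe, and ringed points often lie away from the other mussels at 50 nM.

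Just inside the threshold stood Myt01-016C01 (adjusted p in limma 0.0493, mean -0.53), and just outside it Myt01-016C03 and Myt01-012H08 (adjusted p 0.0503 each, means 0.70 and 0.57), Myt01-004D12 (-0.60) and Myt01-002G11 (0.84).

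Several members with larger means did not pass in limma, whose estimate of a probe's spread takes in the mussels of all 3 doses. Myt01-008B03, the lowest at both upper doses, had -3.72, -2.78 and 4.48 at 50 nM, -2.07, -1.10 and -2.48 at 100 nM, and -2.28, -1.25 and -2.17 at 200 nM. Its spread at 50 nM was the widest of any probe on the array, with an SD of 4.49. With 50 nM replicate 3 turned, its mean at 50 nM was -3.66 ± 0.85 (-0.68 as labelled), and it passed at all 3 doses (adjusted p in limma 9.87e-05, 0.0131 and 0.00726). The direction of that mussel was questioned on this very probe, so its passing is not independent of the turn. Nothing is read from it.

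Myt01-002C11 had -1.66, -1.82 and 1.89 at 50 nM, -1.43, -1.52 and -0.99 at 100 nM, and -0.13, -3.00 and -1.56 at 200 nM. Myt01-002H11 had -1.35, -1.34 and -0.37 at 200 nM, with -0.39, -0.33 and -0.91 at 100 nM. In both, the doses overlapped widely.

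Upward, Myt01-004F11 had 2.28, 0.46 and -1.04 at 50 nM, 0.26, 0.48 and 0.52 at 100 nM, and 1.39, 1.05 and 1.32 at 200 nM. Myt01-014B07 had 2.30, 1.33 and -1.45 at 50 nM, 0.73, 0.93 and 0.66 at 100 nM, and 1.87, 1.49 and 0.21 at 200 nM. Myt01-017B08 had 1.48, 0.17 and -0.69 at 50 nM, 0.76, 0.76 and 0.55 at 100 nM, and 1.65, 0.67 and 1.09 at 200 nM. In these 3, replicate 1 at 50 nM lay within or above the range of the mussels at 200 nM, and replicate 3 at 50 nM was below the pool. With the sign of that replicate turned, the means at 50 nM were 1.26 ± 0.93, 1.69 ± 0.53 and 0.78 ± 0.66 (SD, n = 3 each), against 0.57, 0.73 and 0.32 as labelled.

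At 100 nM the smallest adjusted p among members was that of Myt01-018B03 (0.0855 in limma), listed as lower at that dose only. It had -0.53, -0.34 and -0.19 at 50 nM, -2.39, -1.49 and -0.73 at 100 nM, and -0.55, -0.11 and -0.63 at 200 nM. Every mussel at 100 nM lay below every mussel of the other doses. It passed at 100 nM with median centring, with the authors' processed values, with 18 arrays, with the replicate block, without 50 nM replicate 3, without 100 nM replicate 3 and with 50 nM replicate 3 turned in sign. Myt01-013C10 was also lowest on average at 100 nM, with -0.39, -0.98 and -0.85 at 200 nM, against -1.98, -0.41 and -1.52 at 100 nM.

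In a few members 1 mussel differed from the other 2 of its dose by several log2 units on both of its arrays. Myt01-005H11 had -3.97, -3.16 and 2.42 at 50 nM, -1.57, -1.75 and -1.58 at 100 nM, and -2.96, 2.46 and -2.29 at 200 nM. In 200 nM replicate 2 its arrays A and B gave 2.497 and 2.42, from a treated channel at 4.28 and 3.87 and a pool channel at 1.81 and 1.36. The treated channel of that mussel was higher than on any other array, and its pool channel lay inside the range of the other arrays.

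Myt01-016G11, named for its spread after its values were seen, had -0.68, -0.47 and 3.53 at 100 nM, where replicate 3 reached 3.19 on array A and 3.87 on array B, with the pool channel at 0.99 and 0.82. At 200 nM it had -1.78, -1.15 and 0.55. In both members the mussel far from its neighbours was so in each dye orientation.

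A further set shared 1 mussel. Myt01-012A11, Myt01-005G02 and Myt01-005F12, together with Myt01-012G03 (named after its values were seen), had 1.60, 1.30, 1.48 and 1.50 in 100 nM replicate 1, whereas replicates 2 and 3 at that dose lay between -0.48 and -0.21 for all 4. Their means at 200 nM, 0.45, 0.53, 0.46 and 0.41, were lower than that single mussel.

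Of the 9 members listed at 50 nM, 7 were listed as higher and 2 as lower. The median size of the mean, sign aside, was 0.35 for the 7 and 0.64 for the 2 at 100 nM, against 0.25 over all members. At 200 nM it was 0.20 and 0.09, against 0.48, so they were small at 200 nM only. Myt01-003A09 had 0.96, 1.76 and -0.15 at 50 nM, 0.51, 0.64 and 0.41 at 100 nM, and 0.63, -0.12 and 0.53 at 200 nM. Myt01-003F04 had a mean of 0.01 at 200 nM, against 0.63, 0.73 and 0.13 at 50 nM. Myt01-003C01 had -0.01, 1.24 and 0.28 at 50 nM and 1.56, -0.10 and 0.18 at 100 nM. Myt01-014B02 and Myt01-012B09 had means of 0.24 and 0.10 at 50 nM. Downward, Myt01-016G10 had 0.99, -0.27 and -0.19 at 200 nM, against -0.61, -0.62 and -0.80 at 50 nM. Myt01-001C01 had -2.04, -0.91 and -0.24 at 100 nM, against -1.05, 0.06 and -0.02 at 50 nM, where its mean rested on replicate 1. With 50 nM replicate 3 turned, 36 members had all 3 mussels at 50 nM above the pool (13.2% of all probes) and 31 all below (13.7%), against 11 (10.1%) and 15 (9.74%) as labelled. Turned in that way, 3 members passed in limma at 50 nM: Myt01-008B03 (-3.66), Myt01-014B07 (1.69) and Myt01-005C09 (0.89), which was named after its values were seen. Of all probes, 3 passed as higher (0.156%) and 2 as lower (0.104%). The direction of replicate 3 was questioned on Myt01-008B03 and Myt01-014B07, so their passing is not independent of the turn. Nothing is read from these calls.

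Only 3 members were listed in opposite directions at 2 doses. Myt01-011G08 had -0.997, -0.25 and 0.01 at 100 nM, against 0.31, 0.36 and 0.33 at 50 nM, the smallest spread relative to the mean of the 9. Myt01-015H01 had 0.90, 0.22 and 0.65 at 200 nM, against -0.75, -0.95 and -0.31 at 100 nM. It had the smallest adjusted p among the members for 200 nM minus 100 nM (difference 1.26 ± 0.25 SE, adjusted p in limma 0.630). Myt01-017C08 had -1.06, 0.00 and -0.14 at 200 nM, so that its lower mean came mainly from replicate 1, against 0.37, 0.39 and 0.28 at 100 nM. Myt01-015H01 and Myt01-017C08 were named because of their listing.

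Differences between doses do not depend on the pool, although they are made of values the rule used. No member passed for 200 nM minus 100 nM, 200 nM minus 50 nM or 100 nM minus 50 nM in limma, as with 0.00% of all probes. At an unadjusted p under 0.05, for 200 nM minus 100 nM, 16 members were higher (3.33% of all probes) and 11 lower (2.55%). For 200 nM minus 50 nM 19 were higher (5.00%) and 25 lower (5.16%), and for 100 nM minus 50 nM 8 were higher (1.93%) and 12 lower (2.50%). With 50 nM replicate 3 turned, the count for 200 nM minus 50 nM was 39 in both directions together (7.29%) and that for 100 nM minus 50 nM was 12 (4.74%). The smallest adjusted p for 200 nM minus 50 nM was 0.304, for Myt01-002B06 with a difference of 1.06 ± 0.22 (SE). Myt01-016D12, with -1.72 at 200 nM and 0.35 at 50 nM, passed for that difference only with 18 arrays taken as correlated within a mussel, as did Myt01-014C10, Myt01-002B06 and Myt01-017B09.

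Counted by overlap, the mussels at 200 nM all lay above those at 50 nM for 25 members (7.24% of all probes) and all below for 33 (7.86%). With replicate 3 turned these counts were 22 (5.99%) and 31 (7.14%). Between 200 and 100 nM the counts were 24 (7.50%) above and 20 (6.67%) below, and between 100 and 50 nM 8 (3.59%) above and 14 (4.64%) below. Of the members, 144 had been selected for their ratio at 200 nM, so these counts are a description.

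Measures that the rule did not use directly are the brightness of a spot in the pool channel, the agreement of its 2 spots and its dye effect. The pool channel and the 2 spots enter the ratios that the study selected on, so brightness and agreement are not independent of the selection. In the pool channel 81 of the 172 members were among the brightest 25.0% of all probes and 6 among the dimmest 25.0%. The members' median percentile was 74.2, against 79.0 for the other described probes and 40.9 for the 1486 with no description here. The 2 spots of a member differed by a median of 0.20 in log2 ratio, against 0.16 for the other described probes and 0.30 over all probes. The study's selection weighed the size of a ratio against its spread between mussels, and the part that brightness and spot agreement had in it was not tested.

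The dye effect was taken as array A minus array B, divided by 2, which removes the ratio of treated to pool. No member passed in limma over the 9 mussels, as with 0.00% of all probes. At an unadjusted p under 0.05 there were 24 members (14.0%), where the share of all probes was also 14.0%. The members' dye terms lay between -0.29 and 0.22, with the smallest adjusted p, 0.213, for Myt01-010E12 and Myt01-006E10. The mean over arrays A and the mean over arrays B had opposite signs in 67 members at 50 nM (50.6% of all probes), 35 at 100 nM (42.2%) and 9 at 200 nM (39.9%). Within a mussel, arrays A and B correlated over the members at r = 0.417 to 0.907, lowest in 100 nM replicate 2 and highest in 200 nM replicate 2. Over all probes the same r was 0.0388 to 0.476, and the members had been selected for even ratios.

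For 7 Mytibase clusters the members held 2 probes each, which are 2 readings of 1 assembled transcript and not independent. In 6 of the 7 the probes moved together over the 9 mussels, with Pearson's r between 0.61 and 0.88 as a description across mussels that share the pool. The closest were Myt01-007D06 and Myt01-012D04 (MGC00206), with -1.73, -1.23 and 0.18 for the first and -1.90, -1.08 and 0.05 for the second at 200 nM. Both put replicates 1 and 2 at 200 nM below the pool on each array and replicate 3 near the pool. Arrays A and B of replicate 3 had opposite signs, at 0.59 and -0.22 for the first probe and 0.29 and -0.18 for the second. The distance of replicates 1 and 2 from replicate 3 was thus seen by 2 probes.

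Myt01-005G02 and Myt01-012A11 (MGC00007) both had their highest value in 100 nM replicate 1 and differed by a median of 0.14. Myt01-012F09 and Myt01-013C10 (MGC01399) had the same sign in all 9 mussels, with means at 100 nM of -0.57 and -1.30, so the second gave the larger value. Myt01-017G06 and Myt01-017G09 (MGC03000) and Myt01-006C01 and Myt01-017F12 (MGC07381) were both lower at 200 nM, at -0.35 and -0.30 for the first cluster and -0.39 and -0.58 for the second. Myt01-004C08 and Myt01-004C09 (MGC00116) had means of 0.30 and 0.52 at 200 nM but shared a sign in only 5 of 9 mussels.

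The 7th cluster, MGC02425, went against itself. Myt01-005F12 had 0.25, 0.70 and 0.43 at 200 nM, whereas Myt01-006D12 had -0.14, -0.59 and -0.58, and the 2 probes were listed in opposite directions. Their correlation over the 9 mussels was -0.37, and they shared a sign in 3 of 9. The cause was not tested.

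The tables also give 4 members the Mytibase ID of a probe described by a similarity; these 4 were found by their shared ID, after the values had been seen. Myt01-018A07 carried the ID of a probe for elongation factor 1 alpha, which brings aminoacyl-tRNA to the ribosome, and followed it closely: 0.66 ± 0.08 and 0.64 ± 0.17 at 200 nM, and r = 0.96 over 9 mussels. Myt01-006A04 carried the ID of a probe for stress-associated endoplasmic reticulum protein 2, with means of -0.73 and -0.50 at 100 nM and the same sign in 9 of 9 mussels. Myt01-006C06 shared an ID with an endochitinase-like probe, a protein that cuts chitin, with 0.46 ± 0.63 and 0.57 ± 0.40 at 200 nM.

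The remaining case was Myt01-005F03, the highest of the members. The tables give it 2 different Mytibase IDs, of which MGC02733 is also that of Myt01-013C12, a probe for a small heat shock protein, a chaperone. The means for Myt01-005F03 and Myt01-013C12 were 0.99 and 0.38 at 50 nM, 1.21 and 1.02 at 100 nM, and 1.82 and 1.63 at 200 nM. At 100 nM the SD was 0.13 for Myt01-005F03 and 1.20 for Myt01-013C12, and r over 9 mussels was 0.69 (0.56 without 50 nM replicate 3). Which of the 2 IDs holds is not known here.

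**Figure D5:**
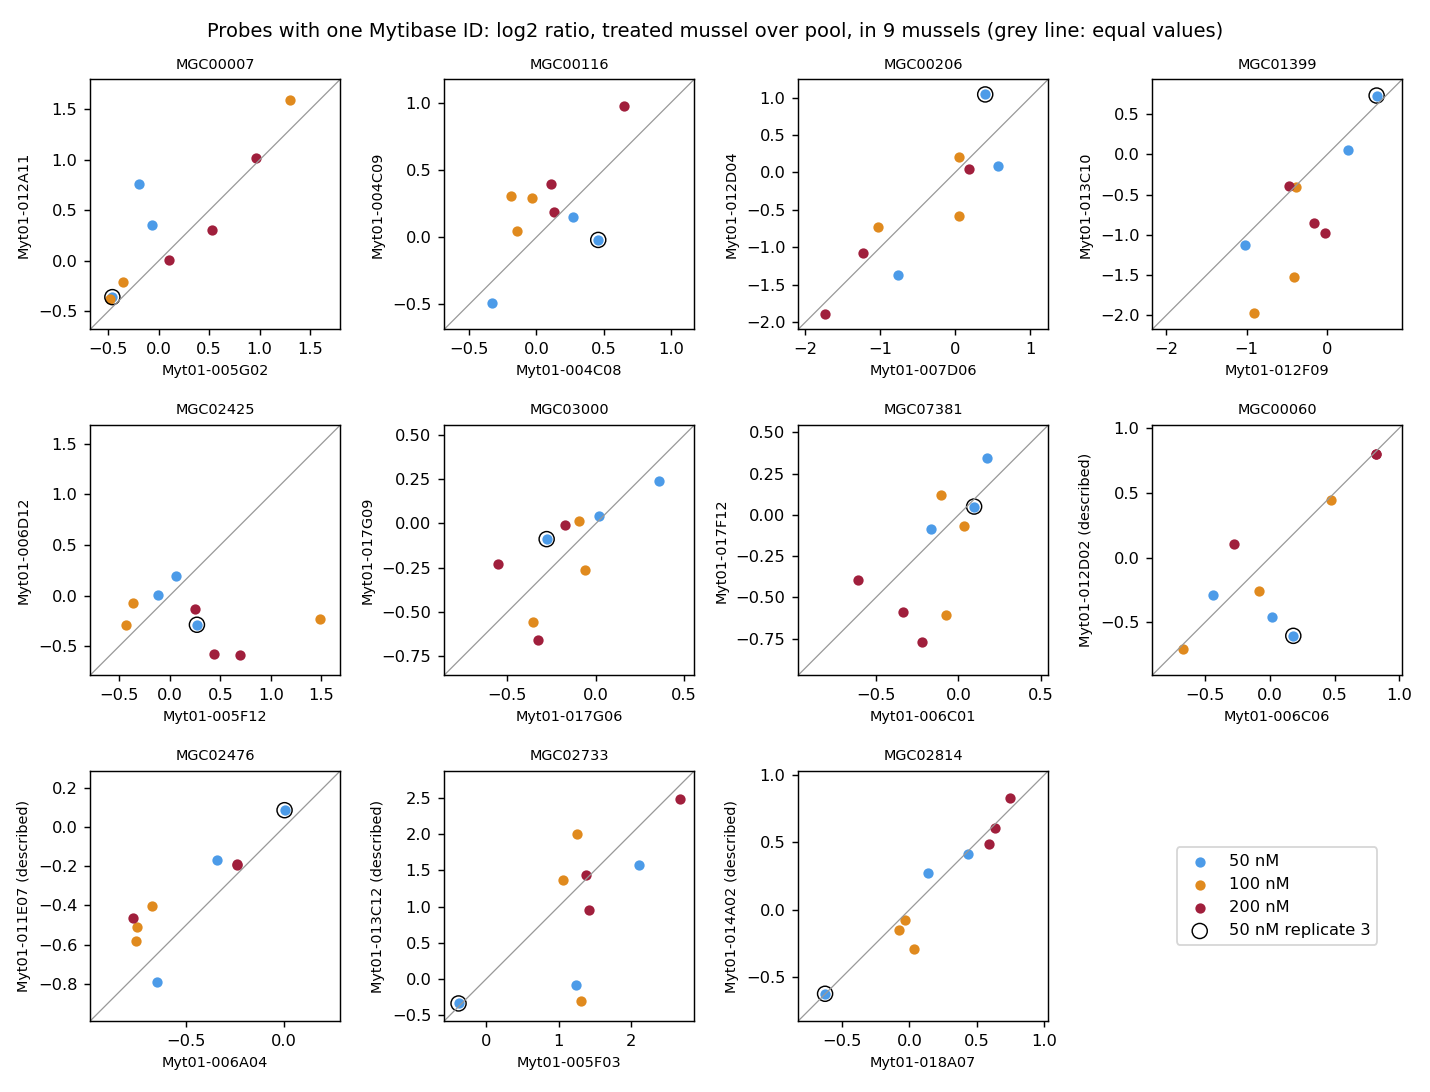
Log2 ratio of treated mussel over pool in the 9 mussels for 2 probes given the same Mytibase ID, on the x and y axes; colours mark the dose and the ring 50 nM replicate 3, and the grey line marks equal values. The first 7 panels hold 2 members each and the last 4 a member and a described probe; MGC02425 is the panel in which the 2 probes go opposite ways (r = -0.37).

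For the 5 members named in the rule, the described probes with the most similar values over the 9 mussels were found by Pearson's r. The values are the highest of 262 and share the pool and the arrays, so they are a description only. For Myt01-018B10 they were probes for a small heat shock protein (r = 0.96), for GADD45 gamma, a stress-induced regulator of the cell cycle (r = 0.95), and for metallothionein-10B, a metal-binding protein (r = 0.89). Without 50 nM replicate 3 these were 0.97, 0.94 and 0.95.

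For Myt01-014C10 they were probes for small nuclear ribonucleoprotein associated protein B, a part of the splicing machinery (r = 0.96), for elongation factor 1 alpha (0.94), and for sequestosome-1, an adaptor that carries ubiquitin-tagged proteins to autophagy (0.92). For Myt01-005F03 they were probes for dual specificity protein phosphatase 7 (0.91), for defender against apoptotic cell death 1, a subunit of the enzyme that attaches sugars to new proteins (0.89), and for proteasome alpha type 2 (0.89). For Myt01-016D12 the nearest was a probe described as unknown from a beetle (0.91), followed by leucine--tRNA ligase (0.85) and kyphoscoliosis peptidase (0.84). These 9 values fell to between 0.71 and 0.90 without 50 nM replicate 3.

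Myt01-008B03 differed. Its nearest described probes were inhibitor of apoptosis 1 (r = 0.89), thymosin beta-4-like, which binds actin monomers (0.86), and actin (0.84), but without 50 nM replicate 3 the same r were 0.06, 0.04 and 0.26. Its likeness to them rested on that 1 mussel.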

How the data were processed

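The data were 18 two-colour arrays of 9 mussels against 1 pool. The deposited scanner files hold, per the file headers, the intensity and background of each spot and channel, before background subtraction. The authors also deposited log2 ratios, made in MIDAS with a total-intensity and a LOWESS step. The direction of each ratio came from the channels named in the headers. Here background was corrected by normexp (offset 50), and ratios got a loess correction per array (span 0.3, 4 iterations) and were averaged over 2 spots and then over arrays A and B. The linear model was run in limma 3.58.1 (R 4.3.3) on the 9 mussels, with a mean for each dose and Benjamini-Hochberg adjustment over 1920 probes, and the step was tested on simulated data; Python 3.11.15 made tables and plots. Scanner files give no read depth. The 9 mussels and the 1 pool, not the 18 arrays, limit precision.

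The members, lists and rules were chosen with earlier results of these data known. Named were the 5 examples of the rule, members past the threshold, the 5 highest and 5 lowest members per dose with 1 sign in 3 mussels, probes sharing a Mytibase ID, members listed at 50 nM, and the described probes nearest to the 5 examples; others were named after their values were seen, for a listing, a threshold, a smallest adjusted p, a spread or a shared ID. Descriptions and Mytibase IDs are those of the study's probe tables, whose values entered no calculation. No probe sequence was used. Alternatives were other background corrections and normalizations, the authors' values, a filter on dim probes, other fits, each mussel left out, and the sign of 50 nM replicate 3 turned.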

Additional observations from a re-analysis of the deposited data

Results flagged for a closer look

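A member was marked here where all 3 mussels of 1 dose lay above the pool and all 3 of another dose below it; limma gave no adjusted p under 0.05 for any of these differences (0.304 to 0.998), so none is shown to differ. Such differences were not counted over all probes, so their number is no result about the members. The 172 members held 18 of them, in 15 members. For 200 nM minus 50 nM these were Myt01-013F06 (1.32), Myt01-002D04 (1.05), Myt01-010C06 (1.05), Myt01-014H10 (0.99), Myt01-005G02 (0.77), Myt01-012C01 (-0.84), Myt01-011E11 (-0.82), Myt01-011G08 (-0.51) and Myt01-001H07 (-0.25). For 100 nM minus 50 nM they were Myt01-002D04 (0.78), Myt01-017C08 (0.51) and Myt01-012D05 (-0.82). For 200 nM minus 100 nM they were Myt01-015H01 (1.26), Myt01-012D05 (0.62), Myt01-004C08 (0.42), Myt01-001H07 (-0.45), Myt01-017C07 (-0.43) and Myt01-008G11 (-0.43). All 12 that involve 50 nM rest on the labelled direction of 50 nM replicate 3: with its sign turned, the 3 mussels at 50 nM no longer share a sign. Myt01-012D05 had 0.26, 0.70 and 0.45 at 50 nM, -0.56, -0.35 and -0.14 at 100 nM, and 0.51, 0.01 and 0.28 at 200 nM.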

How the results depend on the processing

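The number of members past the threshold at 200 nM was 16 of 39 among all probes in the fit described. It was 35 of 97 with plain background subtraction, 29 of 78 with print-tip loess, 7 of 20 with median centring, 43 of 108 with the authors' processed values and 48 of 120 with 50 nM replicate 3 turned in sign. It was 61 of 164 with 18 arrays correlated within a mussel, where the correlation of arrays A and B estimated over all probes was only 0.0701, so that the arrays of a mussel counted almost as separate samples. Without background subtraction, with scaling between arrays, without dim probes and with each dose alone it was 23 of 61, 18 of 43, 22 of 61 and 21 of 65. All 16 were among the 43 and among the 48, and 6 of the 16 among the 7. Leaving out 1 mussel gave 0 to 37 at 200 nM, 0 to 3 at 100 nM and 0 to 1 at 50 nM, where 0 passed with all 9. At 100 nM 1 member passed with median centring, 2 with the authors' values, 7 with 18 arrays, 4 with the turned sign and 2 with each dose alone. The 4 were 2 higher and 2 lower, against 9 and 6 of all probes. At 50 nM 3 passed with the turned sign, 2 higher and 1 lower, against 3 and 2 of all probes. For 200 nM minus 50 nM 4 passed with 18 arrays. For this difference and the other counts at 50 and 100 nM the number among all probes is not given. Nothing is read from them. In the dye test 43 members passed with median centring (23.1% of all probes). No called value changed sign.

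Replicate numbers do not pair the mussels: deviations of same-numbered mussels correlated at -0.10 to 0.15. With a replicate block 6 members passed at 200 nM (16 of all probes), 5 of the 16 members above among them. At 100 nM 1 member passed, and the number among all probes is not given.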
